A study of Mus musculus with 20 samples.

Results

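Prph2, Rom1, Rp1, Rpgrip1, Tulp1, Cngb1, Aipl1, Unc119 and Impg1 build, supply or surround the outer segment of the photoreceptor, the light-sensing organelle at the tip of rods and cones, and Samd11 encodes a nuclear protein of photoreceptors. These genes were taken by name, as 10 of the 23260 genes in the deposited count table, and their unique molecular identifiers (UMIs, 1 for each captured transcript molecule) were summed over the cells of each type in each library. The table covered 20 single-cell libraries of retinal explants from CD1 wildtype mice, a common outbred line, which had been electroporated with plasmid DNA and from which GFP-positive cells were collected. At postnatal day 2 (P2) there were 4 libraries with a GFP control construct and 2 each with a construct for MEIS1, for MEIS2, or for both in equal parts, and at postnatal day 5 (P5) there were again 4 controls and 2 libraries of each construct group. MEIS1 and MEIS2 are homeodomain transcription factors of retinal progenitors, and the series title names the question, the effect of raising them in late progenitors on later development. Every group was thus an electroporated explant, the control included, and only cells that took up plasmid were read.

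A rod carries its outer segment on a modified cilium. Stacked membrane discs fill it, the connecting cilium delivers their proteins, and an interphotoreceptor matrix surrounds it. Rods are born around birth in the mouse and build outer segments only in the following days, so the genes of the organelle are switched on after the rod fate genes. Loss of several of these genes causes retinitis pigmentosa, Leber congenital amaurosis or cone-rod dystrophy in people.

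The 10 genes lie on 8 chromosomes of GRCm38, and all are annotated as protein coding in GENCODE vM21. Prph2 spans chr17:46910459-46924933 on the plus strand and Tulp1 chr17:28351515-28365222 on the minus strand. Rom1 spans chr19:8927391-8929356, Rp1 chr1:3999557-4409241, Cngb1 chr8:95239045-95306585, Aipl1 chr11:72027963-72037509, Impg1 chr9:80313330-80465481 and Samd11 chr4:156246966-156255657, all on the minus strand. Rpgrip1 spans chr14:52110704-52163546 and Unc119 chr11:78343482-78349164, both on the plus strand. The RefSeq promoter table of GRCm38.p6 matched 9 of the 10 genes, all but Rp1, with 11 starts in all because Unc119 has 3.

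The promoters of 5 genes are printed because they carry the motifs searched and include those of Impg1, which had the largest change with age described below, and Samd11, which did not pass the test in controls. Each runs from 250 bases before to 50 bases after the RefSeq start of transcription, 5′ to 3′ on the gene's own strand. The RefSeq starts of Impg1, Rpgrip1 and Samd11 lie inside the GENCODE spans given above. The whole Samd11 window lies inside its span, so positions before its start are not upstream of that span. Capitals mark TAATCC, the core that CRX and OTX factors read, TGCTGA, the core that NRL reads, and TGACAG, a MEIS core, with matches on both strands, so that a match on the other strand shows as the reverse complement. CRX and NRL are the transcription factors of photoreceptor and rod fate. The windows are Impg1 at chr9:80465389-80465688 (minus strand), Cngb1 at chr8:95306536-95306835 (minus), Aipl1 at chr11:72037460-72037759 (minus), Rpgrip1 at chr14:52110653-52110952 (plus) and Samd11 at chr4:156255293-156255592 (minus).
Impg1: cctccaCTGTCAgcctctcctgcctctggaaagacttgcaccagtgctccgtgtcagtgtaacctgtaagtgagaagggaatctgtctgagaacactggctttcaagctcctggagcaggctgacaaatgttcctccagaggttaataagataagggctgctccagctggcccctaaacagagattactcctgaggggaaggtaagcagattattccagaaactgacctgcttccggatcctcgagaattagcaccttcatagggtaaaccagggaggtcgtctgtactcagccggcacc
Cngb1: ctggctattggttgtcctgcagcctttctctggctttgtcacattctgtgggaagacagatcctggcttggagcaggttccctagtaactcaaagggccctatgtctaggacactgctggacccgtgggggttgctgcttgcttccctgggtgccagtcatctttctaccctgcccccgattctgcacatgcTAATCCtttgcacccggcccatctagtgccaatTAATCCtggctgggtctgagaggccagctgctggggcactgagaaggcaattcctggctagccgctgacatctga
Aipl1: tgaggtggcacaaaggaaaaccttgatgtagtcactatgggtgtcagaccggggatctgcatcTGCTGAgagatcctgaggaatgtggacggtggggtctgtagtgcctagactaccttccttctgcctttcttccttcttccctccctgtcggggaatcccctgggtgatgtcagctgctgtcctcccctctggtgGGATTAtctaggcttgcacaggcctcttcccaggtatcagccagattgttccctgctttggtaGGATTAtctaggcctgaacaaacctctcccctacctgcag
Rpgrip1: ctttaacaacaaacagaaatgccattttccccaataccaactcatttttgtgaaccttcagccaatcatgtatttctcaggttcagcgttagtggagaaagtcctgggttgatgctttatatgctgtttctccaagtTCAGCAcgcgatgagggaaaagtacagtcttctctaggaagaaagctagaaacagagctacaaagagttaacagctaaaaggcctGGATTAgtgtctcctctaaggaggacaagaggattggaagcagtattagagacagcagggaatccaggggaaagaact
Samd11: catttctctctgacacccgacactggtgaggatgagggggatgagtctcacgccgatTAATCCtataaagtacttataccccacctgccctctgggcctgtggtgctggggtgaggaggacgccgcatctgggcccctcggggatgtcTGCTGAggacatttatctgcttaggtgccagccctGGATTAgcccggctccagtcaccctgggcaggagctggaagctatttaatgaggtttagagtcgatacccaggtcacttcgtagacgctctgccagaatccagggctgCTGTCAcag

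TAATCC stood in a promoter of 5 of the 9 genes, namely Aipl1, Cngb1, Rpgrip1, Samd11 and Unc119, and in 8.14% of the 27025 genes with a promoter in the table. Its matches lay at -58 and -25 from the start in Cngb1, at -53 and 11 in Aipl1, at -28 in Rpgrip1, at -193 and -67 in Samd11, and at -118 from the second start of Unc119. TGCTGA stood in 4 of the 9 genes, Aipl1, Rpgrip1, Samd11 and Unc119, and in 21.7% of all genes. TGACAG stood in 2 of the 9, at -244 in Impg1 and at 42 in Samd11, and in 21.6% of all genes. No motif overlapped another in these windows. A match describes letters in a window and no factor's binding was measured.

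The 79009 deposited cells carried 501 to 46192 UMIs each, and the authors named 9 cell types, of which rods were the largest with 38650 cells and cones counted 842. Libraries held 1625 to 17739 cells and 2376875 to 141540352 UMIs, and P2 MEIS2 replicate 2 stood apart with a median of 992 UMIs per cell against 2416 to 14199 in the other libraries. At most 30 cell barcodes were shared by any 2 libraries. The barcodes of 18 libraries start with the name of their own group, but those of P2 control 1 start with a combination name and those of P2 combination 2 with a control name, so results that rest on P2 libraries are also given without these 2 where a call changes. The treatment label names MEIS1 for both single-construct groups at P2 and MEIS2 for both at P5, and the series text names NR2F1 and NR2F2, so groups were taken from the sample titles. That text also counts 2 or 5 days of treatment, where titles and age labels give P2 and P5, so a step in age and a step in time since electroporation cannot be told apart here. Meis1 and Meis2 levels in rods were read as a check of the titles. At P2, Meis1 stood at 173 to 467 CPM (UMIs of the gene per 1000000 UMIs of the summed cells) in controls and at 2617 and 2280 in MEIS1 libraries, and Meis2 at 1188 to 1507 in controls and 2873 and 2786 in MEIS2 libraries. The P2 combination libraries held 1049.8 and 891 of Meis1 and 2449.9 and 2422 of Meis2, above all P2 controls, also in replicate 2, whose barcodes carry a control name. At P5, Meis1 stood at 237 to 396 in controls and 957 and 995 in MEIS1 libraries, and the combination held 848 and 554 of Meis1 and 1867 and 1088 of Meis2. Meis2 stood at 551 to 959 in P5 controls and at 951 and 1111 in MEIS2 libraries, so that the library labelled P5 MEIS2 replicate 1 lay inside the control range. Age and library batch cannot be told apart. No label says that replicates came from separate animals, so p-values measure the spread between these libraries.

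The first comparison asked how the 10 genes change in rods between P2 and P5 without MEIS constructs. In control rods 8 of the 10 genes rose, from 1.91-fold for Rom1 to 15.2-fold for Impg1, while Samd11 and Unc119 did not pass the test. None fell. Among all 14786 genes tested 7.24% were called higher and 5.94% lower, at an adjusted p under 0.05 in edgeR's quasi-likelihood test with Benjamini-Hochberg adjustment, and the median gene changed by 0.00 on the log2 scale. The libraries at P5 were all above those at P2 for all 10 genes, which held for 8.83% of all genes. Control rods were summed over 1223 to 6928 cells and 5464307 to 38376123 UMIs per library, and such a sum cannot tell more rods with a transcript from more transcripts per rod.

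Prph2 encodes peripherin 2, the tetraspanin that shapes the disc rim. It stood at 281, 234, 143 and 115 CPM in rods of P2 controls 1 to 4 and at 780.1, 1079, 611 and 906 in P5 controls 1 to 4. Every P5 library was well above the highest P2 library, control 1. The rise was 4.19-fold (log2 fold change 2.07, SE 0.31, edgeR adjusted p = 0.000702). Its rim partner Rom1 was already high at P2, with 849, 743, 699 and 599 CPM, and reached 1265, 1734, 1361 and 1471 at P5. The groups did not overlap, but the step was small, 1.91-fold (log2 fold change 0.93, SE 0.23, edgeR adjusted p = 0.0114).

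Among the genes of the axoneme and connecting cilium, Rp1, a microtubule-associated protein of the axoneme, moved most. It stood at 649, 469.5, 178 and 239.8 CPM in P2 control rods and at 2129.7, 1945, 1416 and 2197 at P5. Control 3 was the lowest at P5, and at P2 controls 1 and 2 were above controls 3 and 4. The rise was 4.84-fold (log2 fold change 2.27, SE 0.35, edgeR adjusted p = 0.000752). Tulp1, a tubby-like protein needed to traffic proteins to the outer segment, went from 449, 385, 219.6 and 160.2 to 742, 1132, 786 and 1103 CPM. That was a 2.98-fold rise without overlap (log2 fold change 1.58, SE 0.28, edgeR adjusted p = 0.00178). Rpgrip1, which anchors RPGR in the connecting cilium, went from 518, 537, 242 and 249 to 1041, 978, 744 and 1044 CPM, and rose 2.37-fold (log2 fold change 1.24, SE 0.28, edgeR adjusted p = 0.00669). P5 control 3 was the lowest P5 control for Rp1 and Rpgrip1, and for Prph2 as well.

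Cngb1, the modulatory subunit of the rod cyclic nucleotide-gated channel that closes in light, was low in summed rods at P2. It stood at 43.0, 32.7, 16.7 and 12.3 CPM in P2 controls and at 241, 431, 171 and 287 at P5, with the lowest P5 library well above the highest P2 library. The rise was 10.3-fold (log2 fold change 3.37, SE 0.44, edgeR adjusted p = 0.000316). Aipl1, the co-chaperone that assembles phosphodiesterase 6, rose 7.22-fold, from 55.1, 42.9, 20.7 and 21.0 to 269.8, 374, 172 and 237 CPM (log2 fold change 2.85, SE 0.31, edgeR adjusted p = 8.87e-05). Aipl1 had the lowest adjusted p of the 10 genes. Unc119, which carries acylated proteins such as the transducin alpha subunit, was abundant throughout, with 994, 949, 898 and 905 CPM at P2 and 1235, 1703, 1282 and 1289 at P5. P5 control 2 stood above the other P5 controls. The libraries did not overlap, yet the 1.39-fold difference did not pass the test (log2 fold change 0.47, 95% interval -0.0044 to 0.95, edgeR adjusted p = 0.185).

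Impg1, a proteoglycan of the interphotoreceptor matrix, had the largest fold of the 10 genes in control rods. It stood at 13.4, 11.3, 3.84 and 1.74 CPM at P2 and at 121, 235, 38.6 and 99.2 at P5, a 15.2-fold rise (log2 fold change 3.92, SE 0.59, edgeR adjusted p = 0.000702). The spread was wide at both ages, and P5 control 3 was again the lowest of its group. Its log2 fold change lay at percentile 99.9 of the genes tested, and that of Unc119, the smallest of the 10, at percentile 79.4. Samd11, a nuclear protein of photoreceptors with a SAM domain, stood at 224, 344, 312 and 88.0 CPM at P2 and 420.1, 673, 364 and 587 at P5. The lowest P5 library, control 3, lay just above the highest P2 library, control 2. The 2.01-fold difference did not pass the test (log2 fold change 1.01, 95% interval 0.25 to 1.77, edgeR adjusted p = 0.0743), and it passed in 3 alternatives, with adjusted p = 0.0384 in DESeq2, 0.0256 from cells with at least 2000 UMIs and 0.0416 with a replicate block in edgeR.

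**Figure D1:**
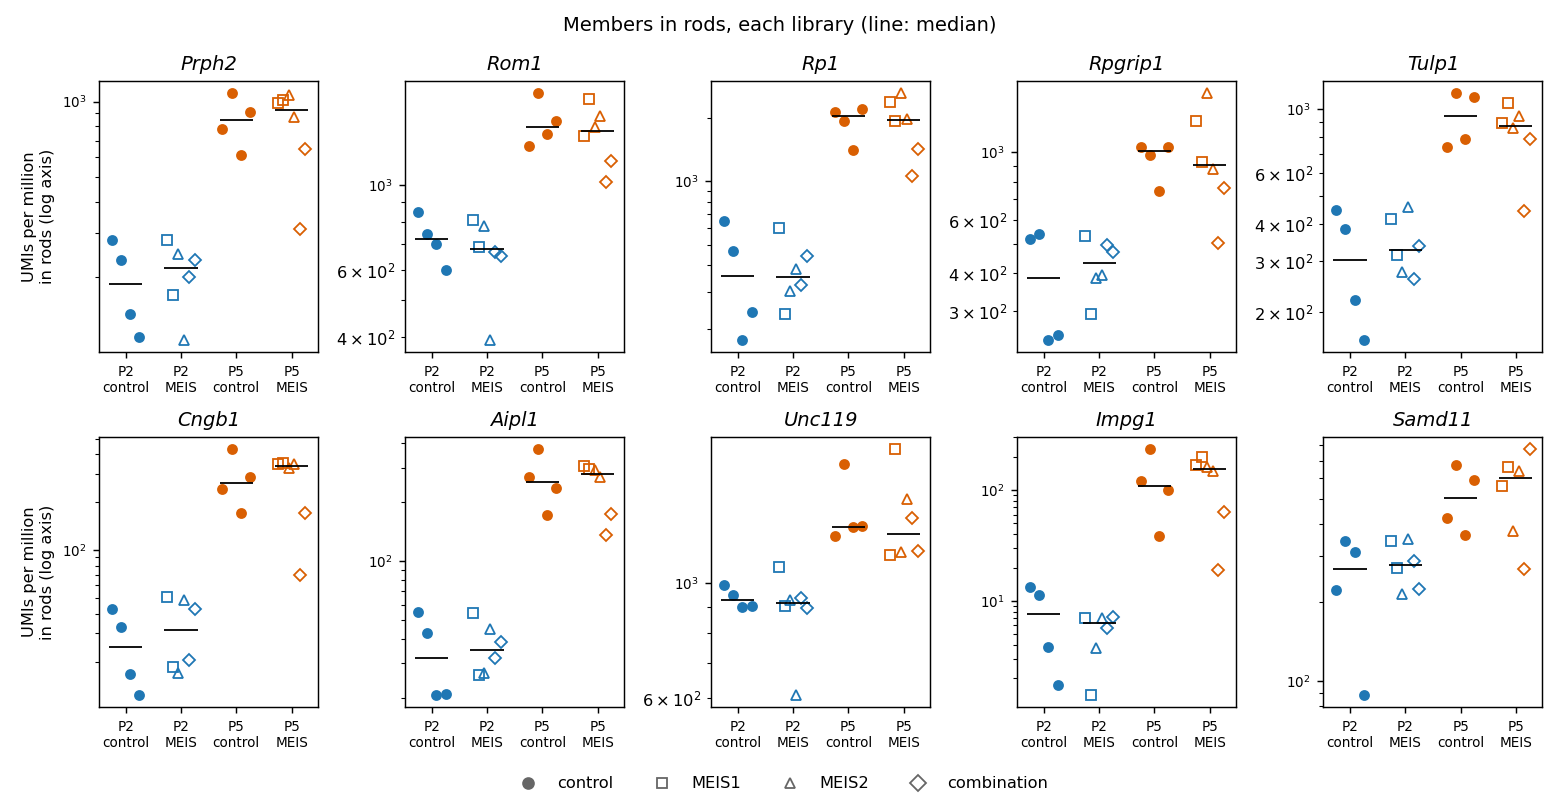
Levels of the 10 genes in rods, in CPM on a log axis that differs between panels; each point is 1 library, blue for P2 and orange for P5, filled circles are controls, open squares MEIS1, open triangles MEIS2 and open diamonds the combination, and the line is the median of the arm. The 4 P5 controls sit above the 4 P2 controls in every panel, and one P5 combination library, an open diamond, is the lowest P5 point in every panel but that of Unc119.

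Markers of rods and of other cell types were read in the same control rods. The summed level of 8 rod markers was 939 to 2535 CPM at P2 and 5704 to 12355 at P5, and all 8 rose. The summed level of 7 neurogenic markers was 880 to 1719 at P2 and 443 to 1404 at P5, of which 4 fell and none rose. Cone markers read 1100 to 2231 at P2 and 744 to 2356 at P5, bipolar markers 194 to 394 and 273 to 498, with 3 of 8 higher and 1 lower, and progenitor markers 19.4 to 38.5 and 19.7 to 32.1. Sums of 2 other lists were separate between the ages: horizontal cell markers read 61.1 to 134 CPM at P2 and 29.0 to 44.0 at P5, and markers of the retinal pigment epithelium 1.47 to 5.01 and 5.38 to 11.5. Microglial markers read 8.83 to 31.1 and 23.0 to 107, and the sums for amacrine, starburst amacrine, ganglion, Müller glial, vascular and erythroid markers overlapped. P5 control 3, the lowest P5 control for Prph2, Rp1, Rpgrip1, Cngb1, Aipl1, Impg1 and Samd11, had the highest neurogenic sum of the P5 controls, 1404, and the lowest rod sum, 5704. The part of these marker levels in the levels of the 10 genes was not tested.

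The second comparison repeated the step from P2 to P5 in the 6 libraries with MEIS constructs at each age. All 10 genes were called higher in these rods, against 11.6% of all genes, and on the TMM-scaled levels of the fit the P5 libraries were all above the P2 libraries for 9 of the 10, which held for 5.44% of all genes. In CPM without that scaling the ages overlapped for Rpgrip1, Tulp1 and Samd11 and not for the other 7. The share of all genes without overlap was not counted on that unscaled measure. These rods were summed over 518 to 2914 cells and 575718 to 25111327 UMIs per library. In them the rod marker sum was 1202 to 2565 CPM at P2 and 3363 to 11660.0 at P5. Bipolar markers read 189 to 233 and 283 to 495, horizontal cell markers 99.0 to 175 and 28.2 to 56.3, and vascular markers 9.28 to 17.4 and 4.66 to 8.54, each without overlap. Neurogenic markers, 1117 to 1352 and 551 to 1391, and the other lists overlapped, and the part of these levels in the step was not tested. Impg1 had the largest fold, with a lowest, median and highest level of 1.41, 6.32 and 7.11 CPM at P2 and 19.1, 155 and 199.5 at P5, a 22.0-fold rise (log2 fold change 4.46, SE 0.53, edgeR adjusted p = 3.8e-05). Cngb1 went from 17.0, 31.7 and 50.6 to 69.3, 336 and 353, an 8.003-fold rise (SE 0.37 on the log2 scale, edgeR adjusted p = 4.05e-05). Aipl1 went from 26.1, 35.3 and 54.4 to 135, 279.9 and 307, with a log2 fold change of 2.75 (SE 0.26). In these 3 genes even the lowest P5 library was above the highest at P2.

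Of the structural genes, Prph2 went from 113, 217 and 281 CPM (lowest, median and highest) to 310.4, 926 and 1065, with a log2 fold change of 1.93 (SE 0.26). Rp1 went from 234, 352 and 601 to 1061, 1961 and 2621, with 2.33 (SE 0.29). The 95% intervals of these steps were 1.39 to 2.47 for the disc rim gene and 1.72 to 2.94 for the axoneme gene. Rom1 changed by 1.06 (SE 0.19), Rpgrip1 by 1.20 (SE 0.23) and Tulp1 by 1.30 (SE 0.23) on the log2 scale. The 2 genes that missed the test in controls passed here. Not every call of the 10 genes in this arm was kept in the alternatives given below. Unc119 changed by 0.65 (SE 0.19, edgeR adjusted p = 0.0184). Samd11 changed by 1.00 (SE 0.30, edgeR adjusted p = 0.022), with levels of 215, 279 and 349 at P2 and 268, 599 and 776 at P5, and it was the gene that overlapped on both scales. In the test of whether the change with age differed between MEIS and control libraries, none of the 10 genes was called (0% of all genes in edgeR and none in DESeq2, while 2.25% had an unadjusted p under 0.05). That difference ran from -0.37 for Cngb1 (95% interval -1.49 to 0.76) to 0.54 for Impg1 (-1.01 to 2.09) on the log2 scale.

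**Figure D2:**
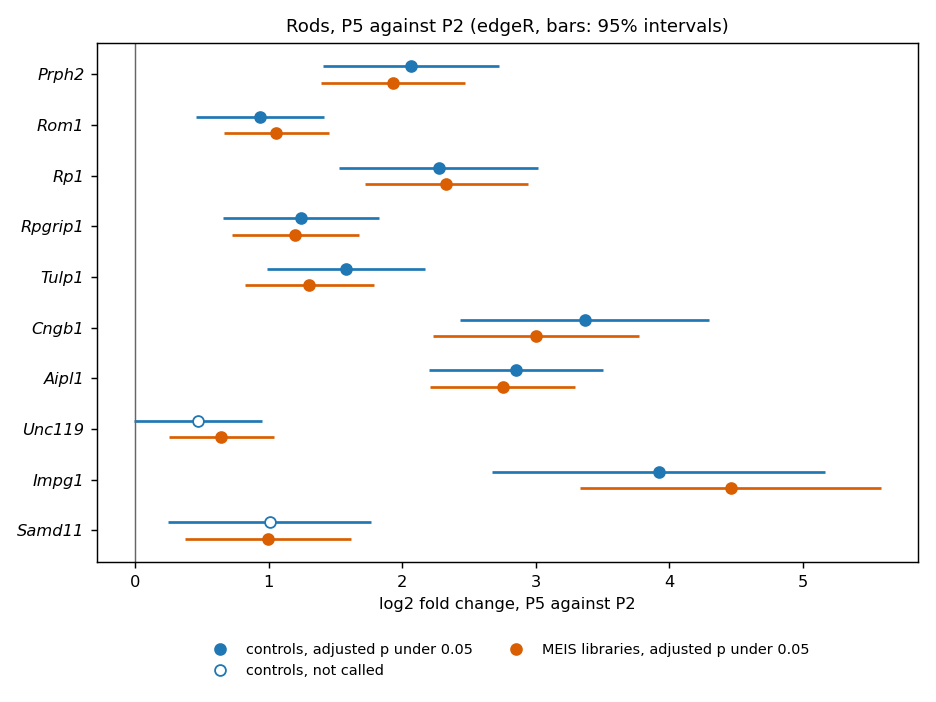
Change of each gene in rods from P2 to P5 as a log2 fold change with its 95% interval, in the 4 against 4 control libraries (blue) and the 6 against 6 MEIS libraries (orange); filled points have an edgeR adjusted p under 0.05. Open points mark Unc119 and Samd11 in controls, at 0.47 and 1.01, and the intervals of the 2 arms overlap for every gene.

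The third comparison asked whether MEIS constructs changed the 10 genes in rods at a given age. None of the 10 was called at P2 or at P5, and the lowest unadjusted p among them was 0.185, for Impg1 at P2, and 0.423, for Tulp1 at P5. At P2 the log2 difference of MEIS from control libraries lay between -0.78 for Impg1 (95% interval -1.96 to 0.41) and 0.14 for Cngb1 (-0.68 to 0.96). At P5 it lay between -0.24 for Impg1 (-1.22 to 0.75) and 0.09 for Samd11 (-0.60 to 0.77). The intervals were narrowest for Rom1 and Unc119. For Unc119 they were -0.63 to 0.23 at P2 and -0.46 to 0.41 at P5, and for Rom1 -0.67 to 0.20 and -0.54 to 0.32. For Prph2 they were -0.57 to 0.59 at P2 and -0.70 to 0.45 at P5. Among the other genes they were -0.76 to 0.54 and -0.70 to 0.59 for Rp1, -0.48 to 0.57 and -0.52 to 0.52 for Rpgrip1, and -0.46 to 0.60 and -0.73 to 0.32 for Tulp1. Aipl1 had -0.63 to 0.52 at P2 and -0.71 to 0.40 at P5, Cngb1 -0.996 to 0.54 at P5 and Samd11 -0.59 to 0.79 at P2. No gene of the 14786 was called at P2 (0%) or at P5 (0%) in edgeR, where 1618 genes (10.9%) and 107 genes (0.724%) had an unadjusted p under 0.05, while DESeq2 called 140 and 1. The P2 count rested on single libraries: it was 576 without P2 MEIS2 replicate 1, 70 without P2 control 1 and 499 without the 2 libraries whose barcodes carry another group's name, and at P5 it was 1 without P5 control 3. None of the 10 genes was among the calls in any of these.

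Levels in MEIS rods at P2 lay mostly within the range of the controls. Rom1 had a lowest, median and highest level of 394, 679 and 809.6 CPM, Unc119 of 608, 915 and 1075 and Rp1 of 234, 352 and 601. The lowest Rom1 and Unc119 libraries were both P2 MEIS2 replicate 2, the shallow library. Rpgrip1 stood at 293, 431 and 528 and Tulp1 at 259, 326 and 459. Rp1 and Rpgrip1 stayed inside the range of the controls in all 6 libraries. At P5 the levels were 1019.8, 1379.5 and 1680.1 for Rom1, 1136, 1247 and 1819 for Unc119 and 502, 905 and 1562 for Rpgrip1. The top of the Rpgrip1 range came from P5 MEIS2 replicate 1.

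Taken by construct, MEIS1, MEIS2 and the combination each left all 10 genes uncalled at both ages, where edgeR called 1 gene for MEIS1 at P2 (0.00676%) and none (0%) in the other 5 contrasts. An unadjusted p under 0.05 was reached by 219, 2067 and 623 genes for MEIS1, MEIS2 and the combination at P2 and by 191, 269 and 560 at P5, and DESeq2 called 1, 464 and 1 at P2 and 1, 0 and 0 at P5. With P2 MEIS2 replicate 1 left out, Rom1 was called lower with MEIS2 at P2, at a log2 difference of -1.05 (edgeR adjusted p = 0.0355), which then rests on the shallow library alone, assumed to vary like the other groups. The P5 combination had the most negative values. Cngb1 stood at 69.3 and 171 CPM in its 2 libraries, a log2 difference from control of -1.22 (95% interval -2.31 to -0.13, edgeR adjusted p = 1.00). Impg1 stood at 19.1 and 63.8, a difference of -1.58 (-3.01 to -0.14, adjusted p = 1.00), and Prph2 at 310.4 and 650.3, a difference of -0.79 (-1.59 to 0.02). P5 combination replicate 1 was the lowest of the 10 P5 libraries for 9 of the 10 genes, all but Unc119. In its rods the rod marker sum was 3363 CPM, under the 5704 to 12355 of P5 controls, and the neurogenic sum was 1391, within their 443 to 1404. Of the authors' rod clusters described below, cluster 0, where the genes were lowest, held 49.8% of its rods against 22.6% to 43.6% in P5 controls, and cluster 2 held 24.4% against 32.4% to 42.6%. The part of those levels and shares in the differences was not tested.

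**Figure D3:**
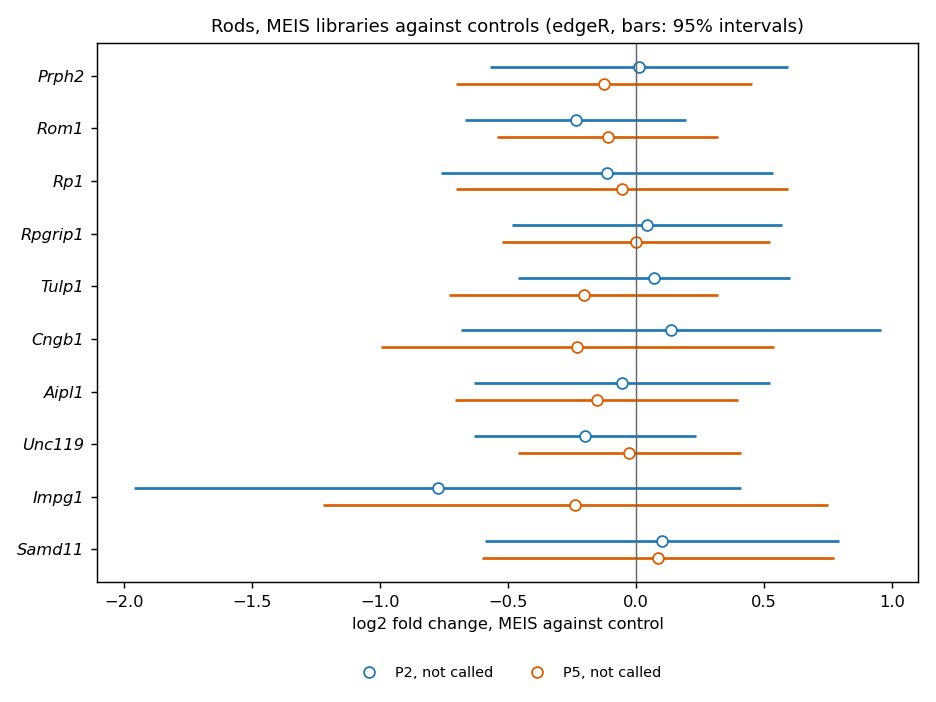
Difference between the 6 MEIS and 4 control libraries in rods for each gene, as a log2 fold change with its 95% interval, at P2 (blue) and P5 (orange); all points are open because none had an edgeR adjusted p under 0.05. Every interval includes 0, and Impg1 at P2 has the widest, from -1.96 to 0.41.

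The share of rods with a transcript was counted after thinning each cell to 1000 UMIs, so that depth was equal. The share was higher at P5 for all 10 genes. Cngb1 was found in 2.74 ± 1.68% and 24.1 ± 8.09% of control rods at P2 and P5 (mean ± SD, n = 4 libraries each), Aipl1 in 3.74 ± 2.1% and 22.2 ± 5.79%, and Impg1 in 0.903 ± 0.706% and 11.1 ± 7.14%. Their shares were the lowest of the 10 at both ages. Rp1 was found in 24.0 ± 10.96% and 75.7 ± 11.6%, Prph2 in 17.4 ± 6.62% and 53.3 ± 9.1% and Tulp1 in 23.5 ± 9.87% and 55.9 ± 9.5%. Rp1 had the largest step of the 10 genes in percentage points. Rpgrip1 was found in 29.8 ± 10.4% and 58.9 ± 7.62%, Samd11 in 20.9 ± 9.58% and 39.2 ± 8.2% and Rom1 in 48.5 ± 6.03% and 69.8 ± 5.79%. Unc119, in 58.6 ± 3.29% and 68.1 ± 4.92%, moved least. Thinning left out 261 of 13602 control rods at P2 and 183 of 10364 at P5.

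Without thinning the shares were larger, 7.63% and 56.9% for Cngb1, 2.21% and 30.2% for Impg1 and 35.7% and 82.6% for Prph2 at P2 and P5. Rods had library medians of 1728 to 4867 UMIs at P2 and 2463 to 7053 at P5. Amacrine cells, interneurons that should hold little of the photoreceptor genes, were counted for comparison. Their thinned shares at P2 and P5 were 2.06% and 5.84% for Prph2 and 3.4% and 7.75% for Rp1. For Rom1 they were 6.64% and 8.19%, and for Unc119 13.6% and 11.8%. Amacrine library medians were 2778 to 7827 UMIs at P2 and 4244.5 to 12441 at P5. What free RNA, misassigned cells or the cells' own transcripts gave to these shares was not tested. In summed amacrine cells P5 control 1 stood high for Rp1 and Cngb1, and P2 control 4 for Rom1 and Unc119, as flagged below. Rod shares of Prph2, Rp1, Rom1 and Unc119 stood above the amacrine shares at both ages. For Cngb1 and Impg1 the amacrine shares were 0.365% and 1.65% and 0.0205% and 0.168%, so the P2 rod shares of 2.74% and 0.90% also stood above them, with a mean of 1.09 and 1.06 UMIs in each rod that held any.

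The authors' 3 rod clusters, numbered 0, 1 and 2, split the rods further. The clusters were made from the same cells and genes, so their levels are described without a test. Cluster 2 held a median of 15.97% of control rods at P2 and 35.8% at P5, cluster 0 held 47.4% and 30.8%, and cluster 1 38.0% and 33.1%. In MEIS libraries cluster 0 held a median of 61.0% at P2 and 28.1% at P5, and cluster 2 14.7% and 39.9%. At P2 cluster 0 held 51.1% to 63.7% of MEIS rods and 40.3% to 51.9% of control rods. In each cluster at P2 the MEIS mean was above the control mean for Prph2, Rp1, Rpgrip1, Cngb1, Tulp1, Aipl1 and Samd11. It was below for Rom1, Unc119 and Impg1. The part of the cluster shares in the comparison of MEIS with control rods was not tested. In control rods at P2 all 10 genes had their highest mean in cluster 2 and their lowest in cluster 0. Cngb1 had means of 7.46 ± 3.5 and 125 ± 78.9 CPM in cluster 0 at P2 and P5, 22.8 ± 11.6 and 321 ± 123 in cluster 1 and 108 ± 35.4 and 439 ± 76.3 in cluster 2 (± SD, n = 4 each). Impg1 had 1.88 ± 1.04 and 60.1 ± 53.9, 3.02 ± 2.32 and 127 ± 93.8 and 35.9 ± 20.7 and 189 ± 81.3. Both genes were higher at P5 within each cluster without overlap of the libraries.

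Prph2 had means at P2 and P5 of 96.8 ± 24.9 and 493 ± 218 CPM in cluster 0, 222 ± 88.1 and 952 ± 204 in cluster 1 and 543 ± 134 and 1203 ± 108 in cluster 2. Rp1 had 159 ± 76.3 and 1341 ± 503, 377 ± 230.3 and 2057 ± 323 and 1326 ± 459 and 2603 ± 339. Aipl1 had 12.9 ± 5.01 and 127 ± 81.5, 28.9 ± 16.6 and 286 ± 66.3 and 138 ± 28.1 and 408 ± 55.2. For these 3 genes too the 2 ages did not overlap in any cluster. The other 5 genes overlapped in cluster 2. There the 4 P2 libraries spanned 593 to 1259 CPM for Rpgrip1 and the P5 libraries 942 to 1120.5. For Samd11 the spans were 393 to 762 at the earlier age against 483 to 650.0 later, and for Tulp1 670.0 to 1077 against 945 to 1598. Rom1 spanned 1322 to 1587 against 1541 to 2237, and Unc119 1213 to 1453 against 1382 to 1933. In cluster 1 the ages overlapped for Samd11 and Unc119, and in cluster 0 for Unc119, whose P2 libraries reached 921 CPM there and whose P5 libraries started at 893. Of the other genes, Rpgrip1 in cluster 0 had 231 ± 66.9 and 824 ± 212 and Samd11 133 ± 61.4 and 404 ± 180.5, with no overlap between the ages in that cluster.

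**Figure D4:**
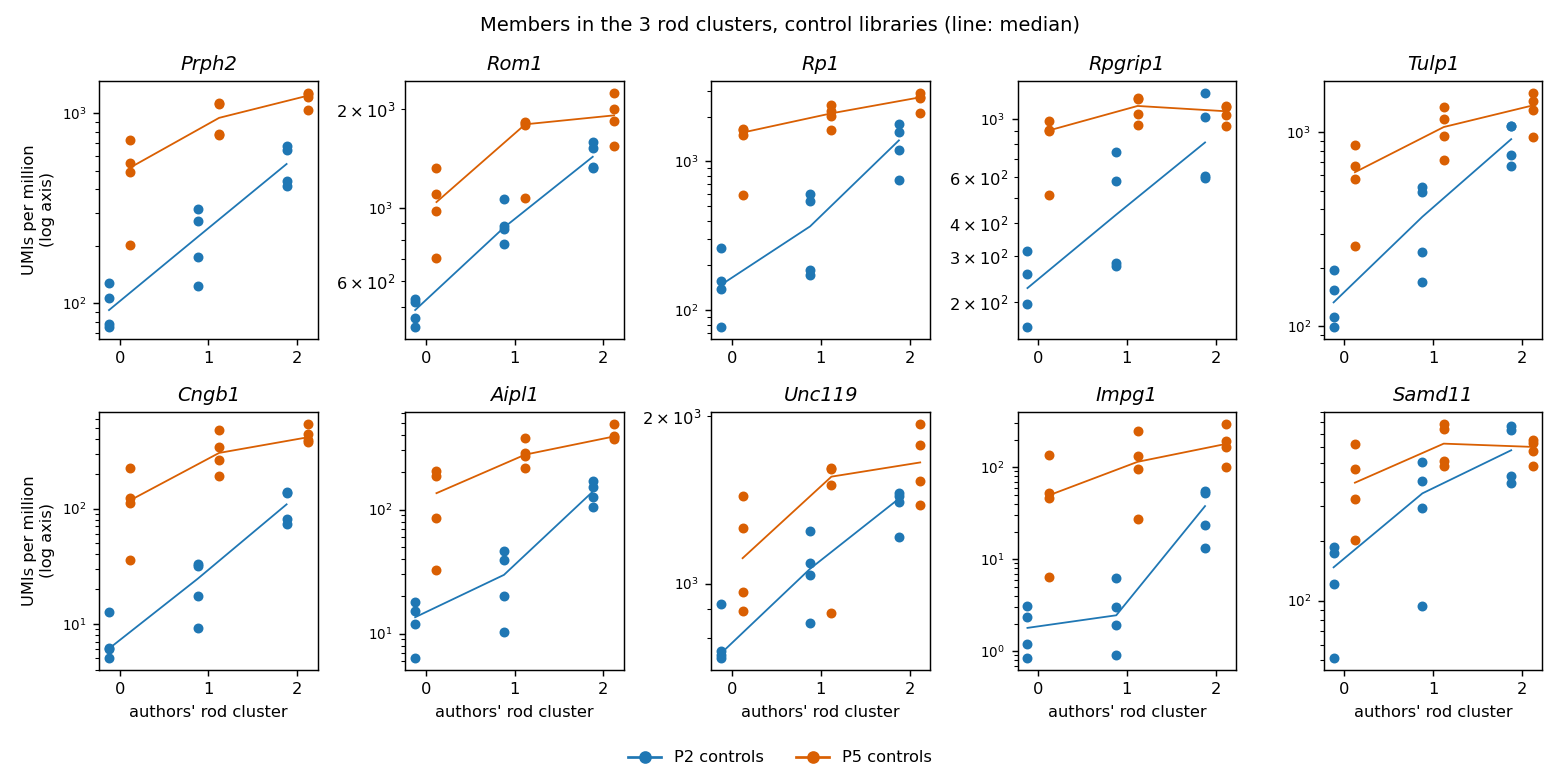
Levels of the 10 genes in the authors' rod clusters 0, 1 and 2, in CPM on log axes that differ between panels; points are the 4 control libraries at P2 (blue) and at P5 (orange), and lines join the medians of clusters whose numbers carry no order in time. Within a cluster the P5 points lie above the P2 points for Prph2, Rp1, Cngb1, Aipl1 and Impg1, and the ages meet in cluster 2 for the other 5 genes, in cluster 1 for Samd11 and Unc119 and in cluster 0 for Unc119.

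Cones, the photoreceptors of daylight vision, differed from rods in which of the genes they held at P2. Levels are given as a percent of the level in rods of the same library, with no test because the types were named from the same cells. In the 4 P2 controls the lowest, median and highest percent were 697, 1357 and 2224 for Aipl1 and 208, 357 and 627 for Tulp1. These 2 genes were higher in cones than in rods in every P2 control. Prph2 at 110, 156.5 and 276 percent and Rpgrip1 at 111, 120.1 and 193 percent were also above rods in every P2 control, by less. Rp1 and Unc119 lay on both sides of 100 percent, at 86.6 to 182 and 60.7 to 148. Rom1 at 23.9 to 43.3, Samd11 at 28.3 to 59.0, Cngb1 at 18.5 to 84.3 and Impg1 at 0 to 40.9 percent were lower in cones in every P2 control. Cngb1 rested on 13, 2, 1 and 3 UMIs in cones of P2 controls 1 to 4, and Impg1 on 9, 1, 0 and 0. Such counts are too few to settle the direction of these 2 genes in controls 2 to 4. The cones behind these values numbered 44 to 352 per library. The share of all genes that lay on the same side of rods in every P2 control was not counted.

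At P5, 2 control libraries had at least 20 cones, control 1 with 103 and control 2 with 24. Aipl1 stood at 392, 299, 414 and 467 CPM in cones of P2 controls 1 to 4 and at 289 and 423 in those of P5 controls 1 and 2. Tulp1 stood at 933, 1083, 950.0 and 1003 and at 762 and 1056. Neither passed the test, with log2 changes of -0.29 (95% interval -1.41 to 0.83) and -0.25 (-1.51 to 1.02). In the same 2 libraries the cone level was 107 and 113 percent of the rod level for Aipl1 and 103 and 93.3 percent for Tulp1.

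Cngb1 and Impg1 were the 2 members called higher in cones at P5, out of 4 genes of 6607 tested (0.0605%). Cngb1 stood at 7.95, 8.67, 6.79 and 10.4 CPM in P2 control cones and 57.5 and 304 in P5 controls 1 and 2 (log2 fold change 4.11, SE 0.66, edgeR adjusted p = 0.0265). Impg1 stood at 5.51, 4.33, 0 and 0 and at 34.0 and 343 (log2 fold change 5.23, SE 0.88, edgeR adjusted p = 0.035). For both genes the higher P5 level was that of the 24 cones of P5 control 2, and without that library, P2 control 3 or P2 control 4 none of the 10 genes was called. Cngb1 alone was called in a fit of only the groups compared and Impg1 alone without P2 control 1, with or without the other library of conflicting barcode start, and DESeq2 gave no adjusted p for either. Those 24 cones held the rod factor Nrl at 264 CPM and the cone arrestin Arr3 at 52.8, against 87.2 and 947 in P5 control 1. They also had the highest Rom1, Samd11 and Rp1 of the control cones, at 832, 607.5 and 2813 CPM. The part of rod RNA or of misassigned cells in these levels was not tested. The other 8 genes were not called, with log2 changes from -0.29 for Aipl1 to 1.79 for Samd11.

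Outside photoreceptors the levels in controls were below those of rods of the same library. At P2 the median percent of the rod level ran over the 10 genes from 9.2 for Impg1 to 26.3 for Cngb1 in amacrine cells and from 5.4 for Samd11 to 14.2 for Impg1 in progenitors. In neurogenic cells Unc119 stood at 26.4 percent and the other 9 genes at 6.7 to 14.4. The 1 P2 control with at least 20 bipolar cells, control 1 with 44, had 28.6 percent for Rp1, 28.8 for Tulp1, 31.9 for Unc119 and 39.9 for Aipl1, the highest of the 10. Sag, a photoreceptor transcript that cones of P2 controls also held at 1398 to 2144 CPM, was read for comparison. It stood at 21.0 percent in amacrine cells, 7.9 in progenitors, 9.3 in neurogenic cells and 22.6 in those bipolar cells. What free RNA or misassigned cells gave to the levels outside photoreceptors was not tested. At P5 the medians were lower, apart from those of Unc119 and Impg1 in bipolar cells. In bipolar cells of the 4 P5 controls the lowest, median and highest percent of the rod level in the same library were 42.0, 48.9 and 56.8 for Unc119, which stood at 668 ± 83.2 CPM (mean ± SD, n = 4). Rom1 stood at 6.7, 10.99 and 13.8 percent and Rpgrip1 at 5.8, 7.9 and 9.4 percent in the same cells. The medians of the other 7 genes were 3.0 to 4.2 percent. Sag, the rod arrestin, stood at a median of 2.7 percent there. Unc119 also stood at a median of 17.7 percent of rods in neurogenic cells and 6.1 percent in progenitors at P5, where the other 9 genes had medians of 2.0 to 8.1 and 0.8 to 2.0 percent. In amacrine cells of P5 controls the medians of all 10 genes ran from 4.3 to 9.8 percent, with Sag at 6.3.

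**Figure D5:**
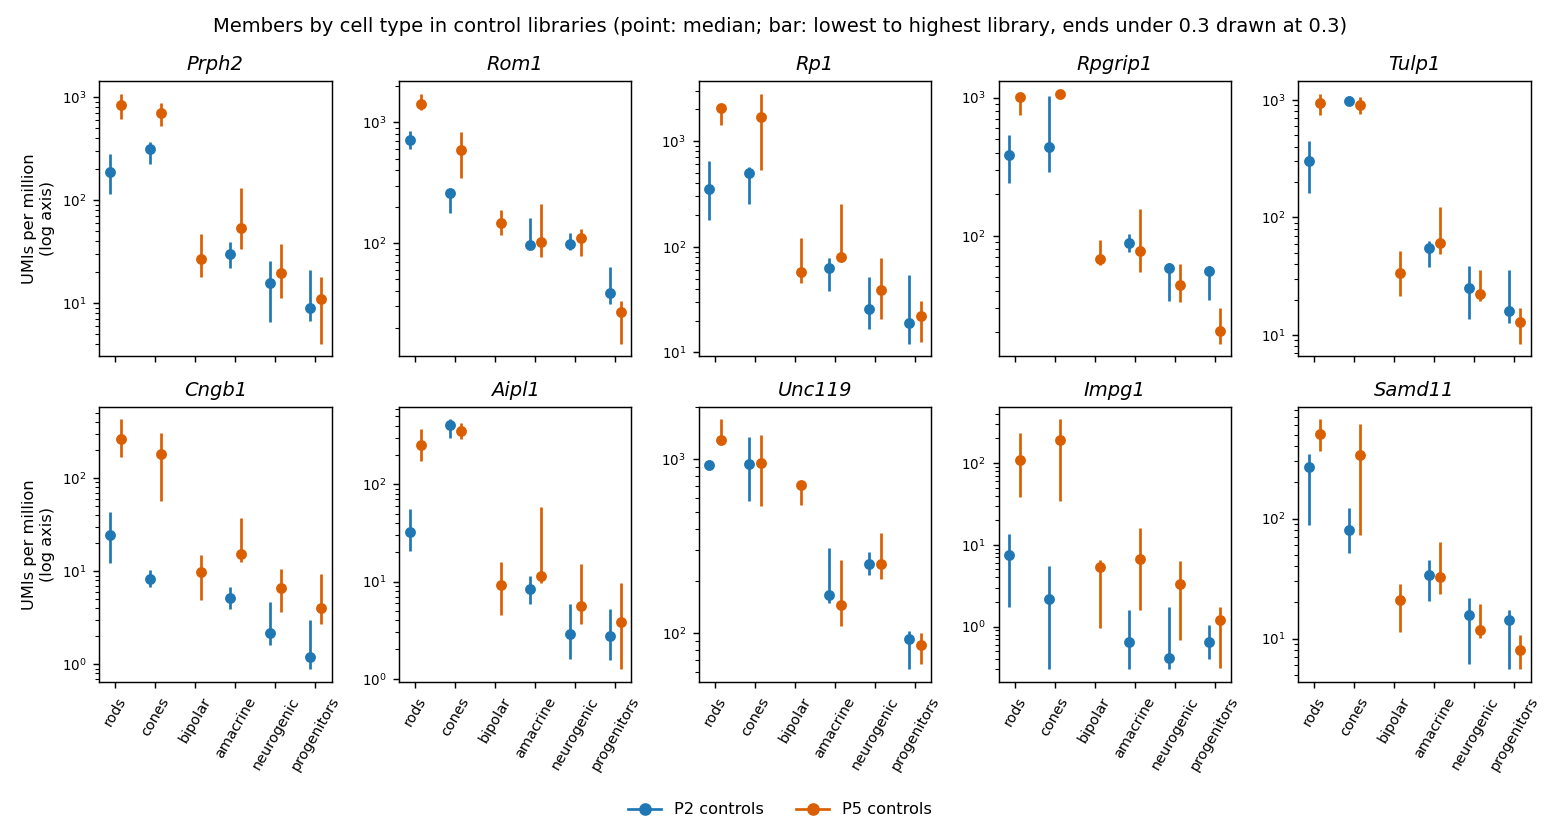
Levels of the 10 genes in rods, cones, bipolar cells, amacrine cells, neurogenic cells and progenitors of control libraries, in CPM on log axes that differ between panels; points are medians over libraries with at least 20 cells of the type, bars run from the lowest to the highest library, blue for P2 and orange for P5, and ends under 0.3 are drawn at 0.3. At P5 the medians of rods and cones stand above the other types in every panel. The bipolar point of Unc119 comes nearest to them. For Unc119 the P5 cone median covers 2 libraries, control 1 with 103 cones at 538 CPM and control 2 with 24 cones at 1373. The value of control 1 lies under the lowest P5 bipolar library, at 544. At P2 the cone median is above the rod median for Aipl1, Tulp1, Prph2, Rpgrip1, Rp1 and Unc119.

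Change with age was not called for any of the 10 genes in neurogenic cells, in controls or in MEIS libraries. Among 13745 genes, 9.27% and 13.8% were called there in either direction (6.67% and 9.14% higher). Unc119 in neurogenic cells was 252 ± 31.5 CPM at P2 and 270.2 ± 74.0 at P5 in controls. In amacrine cells none of the 10 was called in either arm. Among 13097 genes, 0.397% and 2.98% were called in either direction in controls and MEIS libraries (0.351% and 1.89% higher). In the MEIS libraries Impg1 lay at the threshold, with a log2 change of 3.78 (edgeR adjusted p = 0.05003). Impg1 was called there in 5 alternatives, with adjusted p = 0.00777 in DESeq2, 0.0399 without the low count filter, 0.0297 with the replicate block, 0.0499 from cells with at least 2000 UMIs and 0.0485 from cells under 10 percent mitochondrial, and also without P5 MEIS1 replicate 2 or P5 MEIS2 replicate 2. Its value rested on 1 library: it fell to 0.59 without P5 MEIS1 replicate 1 and to -0.91 without all P5 libraries numbered 1. Cngb1 was called without P2 MEIS2 replicate 2. In progenitors none was called in controls, against 17.5% of 14849 genes called in either direction (6.96% lower). Rpgrip1 was called lower in progenitors of the MEIS libraries, where 14.7% of genes were called lower, with a log2 change of -1.35 (SE 0.45, edgeR adjusted p = 0.0307). It went the same way in control progenitors without passing, at -1.24 (edgeR adjusted p = 0.109), and the call in MEIS libraries was lost in a fit of only the compared groups, with the replicate block, without the 2 libraries whose barcodes carry another group's name and in 7 of the 12 fits without 1 library. Without P2 MEIS2 replicate 2, the shallow library, the change was -0.54. The count of the 10 genes called there ran from 0 to 4 without 1 library, with Rpgrip1, Rom1, Tulp1 and Samd11 lower without P2 MEIS2 replicate 1. With MEIS constructs against control, none of the 10 genes was called in neurogenic cells, progenitors or amacrine cells at either age, or in bipolar cells at P5. Among all genes edgeR called none (0%) and 1 (0.00728%) in neurogenic cells at P2 and P5, 2 (0.0135%) and 3 (0.0202%) in progenitors, none in amacrine cells at either age, and 1 (0.00678%) in bipolar cells. An unadjusted p under 0.05 was reached by 10.7% and 1.64% in neurogenic cells, 9.14% and 1.91% in progenitors, 4.15% and 1.24% in amacrine cells and 3.82% in bipolar cells, and DESeq2 called 122 and 1, 6 and 6, 1 and 0, and 12 genes.

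Other photoreceptor genes in the same control rods give the setting. Of 10 disc and outer segment genes, 9 rose and none fell from P2 to P5, with a median log2 change of 1.69, led by Rcvrn, the calcium sensor recoverin, at 3.79, and Slc24a1, the rod sodium-calcium exchanger, at 3.03. Of 15 rod phototransduction genes, 12 rose and none fell, with a median of 2.67, led by Cnga1, the channel partner of Cngb1, at 4.37, and Gucy2e, a guanylate cyclase, at 2.92. Of 20 genes of the cilium and its transport, 13 rose and none fell, with a median of 0.71, led by Rp1l1, a relative of Rp1, at 2.73, and Fam161a at 2.41. Of 8 retinoid and matrix genes, 5 rose and none fell, with a median of 1.00, among them Rdh12 at 3.22 and Impg2, the relative of Impg1, at 1.46. Of 10 cone phototransduction genes 7 had counts enough to be tested, none was called in controls, and the median of the 7 was -0.57. Of 11 photoreceptor transcription factors, 4 rose, among them Thrb at 2.10 and Nr2e3 at 1.67, and 2 fell, Rorb at -1.21 and Prdm1 at -0.86. These counts stand beside the 7.24% called higher and 5.94% called lower among all genes tested.

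Correlations between the 10 genes in rods are a description over libraries that share age groups and depth. Their 45 pairs had a median Pearson correlation of 0.91 over all 20 libraries (0.60 to 0.99), a value that includes the step with age. Within an age the median was 0.56 over the 10 libraries at P2 (-0.15 to 0.96) and 0.79 over the 10 at P5 (-0.21 to 0.98), so some pairs did not move together there. The 5 genes whose level was most like the mean of the 10, among 9186 ranked, were Sag, Rdh12, Rtbdn, Rp1l1 and Stx3, each with a correlation of 0.99 over 20 libraries. Within P5 their correlations were 0.94, 0.94, 0.94, 0.99 and 0.95, and within P2 0.93, 0.94, 0.88, 0.85 and 0.89.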

How the data were processed

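The deposited table holds UMI counts of 23260 genes in 79009 cells from single-cell 3′ libraries, and the authors also deposited each cell's library, cell type, cluster and percent of mitochondrial UMIs. Per the labels, cells came from papain-dissociated retinal explants and the 10x 3′ v3.1 kit. Cell Ranger, Seurat 5 and mm10 are named in the submitters' processing notes, and the Cell Ranger version is not given in the sources used here. The sum of counts equalled the deposited UMI total in all 79009 cells. No cell was removed here and no doublet caller was run. For each library, UMIs of the cells of each deposited type were added up where at least 20 cells were present. Levels are counts per 1000000 UMIs of that sum (CPM), without further scaling, and log2 levels used a pseudocount of 1. Tests used edgeR 4.0.16 in R 4.3.3 (filterByExpr, TMM, quasi-likelihood, all 8 groups fitted jointly, Benjamini-Hochberg over all genes tested, threshold 0.05), checked on simulated data. DESeq2 1.42.0, no TMM, no low count filter, stricter cell filters, a replicate block and leaving out libraries were alternatives. Cells were thinned to 1000 UMIs for shares of cells. Python 3.11.15, pandas 2.3.3, numpy 2.4.6 and matplotlib 3.10.9 did the rest.

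All 10 members are named in the rod comparisons of ages and of any MEIS construct, and in the others as a set with those at the ends of the range. From each list of other genes, up to 2 rising and 2 falling genes called in control rods are named, largest change first, with a mean log2 level of at least 3, and the 5 genes most like the members by correlation over libraries. The members and lists were chosen with earlier results of these data known. Genes of the lists that name cell types served as markers. Intervals cover the spread between libraries.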

Additional observations from a re-analysis of the deposited data

Results flagged for a closer look

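Values of a single control library that stood apart from the 3 others of its group were sought in 180 groups of 4 libraries, by the gap to the nearest library as a share of the range (Dixon's test at 95%). They were found in 17 groups, where chance gives about 1 in 20 for separate groups of normally spread values. The groups here share libraries, and whole rods, rod clusters and thinned rod shares hold the same cells. The count of 17 therefore cannot be set against that rate. No cause was tested.

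In whole rods Unc119 in P5 control 2 stood high at 1703 CPM, with the next library at 1289. After thinning, the share of rods with Rp1 in P5 control 3 was low at 58.2%, with the next at 80.6%. In rod cluster 0, P5 control 3 was low for Rp1 at 591 (next 1513) and for Rpgrip1 at 510.0 (next 901), P2 control 1 was high for Cngb1 at 12.7 (next 6.11), and P2 control 2 was high for Unc119 at 921 (next 757). In rod cluster 1, P5 control 1 was low for Rom1 at 1071 (next 1783) and for Unc119 at 885 (next 1505).

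In amacrine cells, P5 control 1 was high for Aipl1 at 58.4 CPM (next 12.3), for Cngb1 at 37.7 (next 15.4) and for Rp1 at 251 (next 80.1), and P2 control 4 was high for Rom1 at 162 (next 98.7) and for Unc119 at 309.6 (next 173). In cones Rom1 was low in P2 control 2 at 178, with the next at 259.5. In bipolar cells Unc119 was low in P5 control 4 at 544, with the next at 702. In progenitors P2 control 1 was high for Cngb1 at 2.96 (next 1.22) and for Prph2 at 20.8 (next 8.94).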

How the results depend on the processing

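In control rods from P2 to P5 the count of the 10 genes called stayed at 8 or 9 in every alternative and at 8 in each fit without 1 library, and in MEIS rods at 9 or 10. Among all genes the control count was 1949 and ran from 1124 (without P5 control 2) to 2315 in fits without 1 library, and the MEIS count was 3273 and fell to 1965 without the P5 libraries numbered 1, whose median mitochondrial share was 6.93 to 10.6 percent. For any MEIS at P2, 0 genes were called, against 140 in DESeq2, 285 with groups taken from barcode starts, 499 without the 2 libraries whose barcodes name another group, and 0 to 576 without 1 library. At P5 it was 0, against 1 in DESeq2 and 0 to 1 without 1 library. Rods with MEIS2 at P2 had 0 to 1 of the 10 genes called without 1 library.

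In cones 2 of the 10 genes were called from P2 to P5, 1 in a fit of only the groups compared and 1 without the 2 libraries of conflicting barcode starts, and 0 to 2 without 1 library (0 without P2 control 3, P2 control 4 or P5 control 2). DESeq2 gave no adjusted p for Cngb1 and Impg1 in cones. In progenitors the control count was 0, and 2 in a fit of only the groups compared. The MEIS count there was 1, and 0 in a fit of only the groups, with the replicate block or without the 2 libraries, 2 from cells with at least 2000 UMIs or without the P5 libraries numbered 1, and 0 to 4 without 1 library. In amacrine cells the MEIS count was 0, and 1 in DESeq2, without the low count filter, with the replicate block, from cells with at least 2000 UMIs and from cells under 10 percent mitochondrial, and 0 to 1 without 1 library. In neurogenic cells the MEIS count was 0, and 0 to 1 without 1 library.

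The log2 difference of MEIS from control in rods, called in no alternative, changed sign as follows. At P2, Prph2 read -0.0020 in DESeq2, -0.011 without the filter, -0.0016 in only the groups compared and -0.23 with the replicate block, Rp1 read 0.12 from cells with at least 2000 UMIs, 0.24 by barcode start and 0.053 without the 2 libraries, and Aipl1 read 0.042 without TMM, 0.0060 from cells with at least 2000 UMIs, 0.27 by barcode start and 0.083 without the 2 libraries. With the replicate block Rpgrip1 read -0.19, Cngb1 -0.21 and Tulp1 -0.13, and Samd11 read -0.017 without the 2 libraries. At P5, Rpgrip1 read 0.013 in DESeq2, 0.0028 without the filter, 0.013 from cells with at least 2000 UMIs and 0.0092 from cells under 10 percent mitochondrial, Samd11 read -0.11 with the replicate block and Unc119 0.0090 without the P5 libraries numbered 1. Without 1 library the ranges at P2 were -0.27 to 0.24 for Aipl1, -0.16 to 0.47 for Cngb1, -0.25 to 0.23 for Prph2, -0.39 to 0.24 for Rp1, -0.14 to 0.20 for Rpgrip1, -0.18 to 0.29 for Samd11 and -0.13 to 0.30 for Tulp1. At P5 they were -0.31 to 0.077 for Aipl1, -0.44 to 0.064 for Cngb1, -0.55 to 0.30 for Impg1, -0.28 to 0.029 for Prph2, -0.17 to 0.010 for Rp1, -0.16 to 0.12 for Rpgrip1, -0.18 to 0.26 for Samd11 and -0.17 to 0.11 for Unc119.

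The P5 less P2 share of control rods was 18.4 percentage points for Aipl1, 21.4 for Cngb1, 10.2 for Impg1, 35.9 for Prph2, 18.3 for Samd11 and 32.5 for Tulp1 at 1000 UMIs. Without thinning it was 43.9, 49.3, 28.0, 46.9, 38.1 and 41.4, and at 2000 UMIs 31.3, 35.9, 17.5, 47.3, 33.1 and 43.9. Whether the replicate numbers pair the libraries was read from levels less the group mean. Same-numbered libraries of different groups correlated over 0.1 in 23 of 58 pairs, from -0.33 to 0.61. Where both groups held 2 libraries, their 2 pairs gave the same value by construction, so the 58 are not separate values. The correlations do not settle the question. The 4 control pairs between ages ran from 0.046 to 0.32, and P2 controls 3 and 4 correlated more with a P5 control of another number. In 7 of 28 pairs of groups every same-numbered pair lay over 0.1, which is 1 value where both groups held 2 libraries. Among them were P5 control, MEIS1 and MEIS2, where libraries numbered 1 shared the higher mitochondrial share. Those libraries correlated at 0.61 (control and MEIS1), 0.57 (control and MEIS2) and 0.60 (MEIS1 and MEIS2). P5 combination replicate 1 also had a high median mitochondrial share, 8.27 percent. It correlated with them at only 0.071 (control), -0.16 (MEIS1) and -0.12 (MEIS2). P5 control 2 correlated at 0.14 with MEIS1 replicate 2 and at 0.15 with MEIS2 replicate 2. With the replicate block, 9 of the 10 genes were called in control rods (Samd11 added) and 2384 of all genes, against 1949. Cone counts with MEIS, bipolar counts with age and bipolar counts with MEIS at P2 were not run because fewer than 2 libraries in a group held 20 cells. The cause of these shifts was not tested. Depth limits Impg1 at P2, with 1.7 to 13.4 CPM in control rods, and all cone values.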
